A study of Homo sapiens with 18 samples.

Results

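Nuclear-encoded respiratory chain genes are the genes of the cell nucleus that code for subunits of the mitochondrial complexes of oxidative phosphorylation. They were chosen by symbol, as protein-coding nuclear genes named NDUFA, NDUFB, NDUFC, NDUFS or NDUFV with a number, SDHA to SDHD, UQCR genes, CYC1, COX genes numbered 4 to 8, and ATP5 genes. The count table held 90 such genes among 63677 genes, and 82 of them, here called the members, exceeded 5 counts in 10 or more of the 18 libraries. All genes that passed this filter numbered 15576. The 8 that did not pass were ATP5MF-PTCD1, ATP5MGL, COX4I2, COX6A2, COX6B2, COX8C, NDUFA4L2 and NDUFC2-KCTD14. Members numbered 36 for complex I, 4 for complex II, 10 for complex III, 14 for complex IV and 18 for complex V. The choice by symbol also took in ATP5IF1, which is not a subunit of complex V but is counted with it. It took in COX7A2L too, a factor of supercomplexes that is counted with complex IV.

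Complexes I and II pass electrons from NADH and succinate to ubiquinone, complex III hands them on to cytochrome c, and complex IV passes them to oxygen. Complexes I, III and IV pump protons across the inner mitochondrial membrane on the way, and complex V, the ATP synthase, uses the proton gradient to make ATP. All of them but complex II also contain subunits encoded by mitochondrial DNA, so that transcripts of both genomes supply the chain.

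The RNA came from NCI-H1299, a human lung cancer cell line that the labels give as lung adenocarcinoma, after transient transfection with a lipid reagent, in 6 groups of 3 libraries. TBX2 and TBX4 cells received Flag-tagged human cDNA in pORF, TBX3 cells HA-tagged human cDNA in pCGN, and TBX5 cells HA-tagged mouse Tbx5 in pCGN. EV cells received the empty vector, and for the cells labelled Ctl the treatment is not named. These plasmids encode T-box transcription factors, and the comparison asks which transcripts differ when each factor is overexpressed. The methods state that only some of the cells took up plasmid, so each value is an average over transfected and untransfected cells. In such bulk RNA, fewer cells with a transcript and less transcript per cell cannot be told apart.

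Libraries held 7365221 (TBX2 replicate a) to 11743179 (EV replicate c) counts. Levels are given as CPM, the field's unit of counts relative to library size, here after TMM scaling, and 3 counts, taken as the smallest level detected, equalled 0.191 to 0.595 CPM. Such floors cover counting error only. Whether the 3 replicates of a group were independent cultures is not stated, so p-values measure the spread between these libraries, which may be technical. A gene with no symbol in the annotation took 12.4% to 40.2% of the counts of a control library, 19.6% to 40.5% with TBX2, 10.7% to 47.4% with TBX3, 13.2% to 18.6% with TBX4 and 22.5% to 53.5% with TBX5. Mitochondrial genes took 14.3% to 19.6% in the controls, 17.1% to 22.8% with TBX2, 12.97% to 20.5% with TBX3, 22.1% to 23.1% with TBX4 and 12.1% to 21.4% with TBX5. All TBX4 libraries thus lay above the controls in mitochondrial share. The part of the mitochondrial share in the results was not tested, and fits that take account of the most counted gene follow below.

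Plasmid genes were high in their own group. TBX2 had 35583, 47916 and 27704 counts in the TBX2 libraries and 15 to 59 in the others. TBX3 had 135416, 168437 and 320890 counts in the TBX3 libraries and 12 to 119 elsewhere. TBX4 had 94188, 109159 and 85197 counts in the TBX4 libraries and at most 19 elsewhere. TBX5, read on the human gene from a mouse cDNA, had 1161, 1163 and 1302 counts in the TBX5 libraries and at most 1 elsewhere. The library labelled 4c-TBX5 held the 85197 counts of TBX4 and 1 count of TBX5, and is taken here as TBX4 replicate c, with results given with and without it where they rest on it. VIM had 4051 to 13492 counts per library, and the epithelial keratins KRT8 and KRT18 had 119 to 613 and 292 to 1155. Markers of lung epithelium were near 0, with at most 3 counts of EPCAM, 4 of NKX2-1, 1 of SFTPC and 10 of NAPSA in any library. Markers of leukocytes (PTPRC, at most 4 counts), endothelium (CDH5, at most 1) and fibroblasts (COL1A1, at most 6) were as low.

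With TBX2 or TBX3, many transcripts of the chain were lower than in the controls, with the lowest medians in complexes III, IV and V, while with TBX4 few members changed. Each TBX group was compared with the same 6 control libraries (EV and Ctl), so the comparisons are not independent of each other. A member is called changed at an adjusted p under 0.1 by edgeR's quasi-likelihood test over all 15576 genes. With TBX2, 31 of 82 members fell, where 15.6% of all tested genes did, and 3 rose, where 17.0% did. The median log2 fold change of the members was -0.15, against -0.0013 for all tested genes. Without TBX2 replicate a 19 members fell, and without TBX2 replicate c 19 fell and 1 rose.

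With TBX3, 24 members fell, against 6.40% of all tested genes, and 0 rose, against 8.47%. DESeq2 also gave 0 members up, and 41 members had an unadjusted edgeR p under 0.05, in either direction. Such a p was found for 3713 of all 15576 tested genes. The members' median was -0.16, against -0.0021 for all tested genes. Without TBX3 replicate a 15 members fell, without replicate b 14, and without Ctl replicate a 1 rose.

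With TBX5, 10 members fell, against 6.12% of all tested genes, and 2 rose, against 6.55%, around a median of -0.07. The lower count rests on single libraries, with 5 members down without TBX5 replicate b and 4 without TBX5 replicate c. The 2 that rose became 0 without TBX5 replicate a, and 1 without TBX5 replicate b, EV replicate a, EV replicate b or EV replicate c. DESeq2 gave 5 members down and 0 up, and with the Ctl libraries alone as controls edgeR called 1 down and 0 up.

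With TBX4, 3 members rose, against 6.97% of all tested genes, and 3 fell, against 6.07%, shares near or below those of all genes. Their median of 0.01 became 0.26 when libraries were scaled by their totals. Without the library labelled 4c-TBX5, 3 rose and 1 fell, with a median of 0.04. The 3 were then NDUFA4, and ATP5F1E (0.19, adjusted p 0.0903) and ATP5PD (0.21, 0.0909) of complex V, which are not called with that library (0.13, 0.172 and 0.12, 0.305). The count up was 0 without TBX4 replicate a, 1 without EV replicate a or EV replicate b, and 7 without EV replicate c, and the count down was 1 without TBX4 replicate b. Between EV and Ctl, edgeR called 0 members up, against 0.282% of all tested genes, and 0 down, against 0.103%. There 3 members had an unadjusted p under 0.05, as had 1432 of all 15576 tested genes. DESeq2 gave 0 members, and their median was 0.04.

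Use of library totals for scaling moved the median of all tested genes to 0.25 with TBX4, -0.31 with TBX5 and 0.20 between EV and Ctl. Relative to all genes, the members' median then stood at -0.14 with TBX2, -0.16 with TBX3, 0.01 with TBX4, -0.06 with TBX5 and 0.04 between EV and Ctl. Under that scaling 3 members fell and 0 rose with TBX2, 16 rose and 0 fell with TBX4, and edgeR called 0 with TBX3 and 0 with TBX5. Of all 15576 tested genes, 223 fell and 833 rose with TBX2 under it, and 33 fell and 2756 rose with TBX4. The members' share up with TBX4 is thus near that of all genes. With TBX3, 0 of all genes fell and 35 rose, and with TBX5 55 fell and 38 rose. With library totals that leave out the most counted gene, the median of all tested genes was -0.031 with TBX4, -0.034 with TBX5 and 0.022 between EV and Ctl, and 1 member rose with TBX4. Under it 32 members fell with TBX2, 42 with TBX3 and 14 with TBX5. Among all 15576 tested genes, 2548, 1709 and 1212 fell in these comparisons, and 895 rose with TBX4. In a fit that held each library's share of its most counted gene, TBX2 had 32 members down and 3 up, TBX3 had 36 down, TBX4 had 3 down, and TBX5 had 9 down and 4 up. EdgeR called 0 members up with TBX3 and TBX4 in that fit. All tested genes that fell in it numbered 2450, 1387, 276 and 1029 with TBX2, TBX3, TBX4 and TBX5. Those that rose numbered 2657, 1528, 388 and 940.

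**Figure D1:**
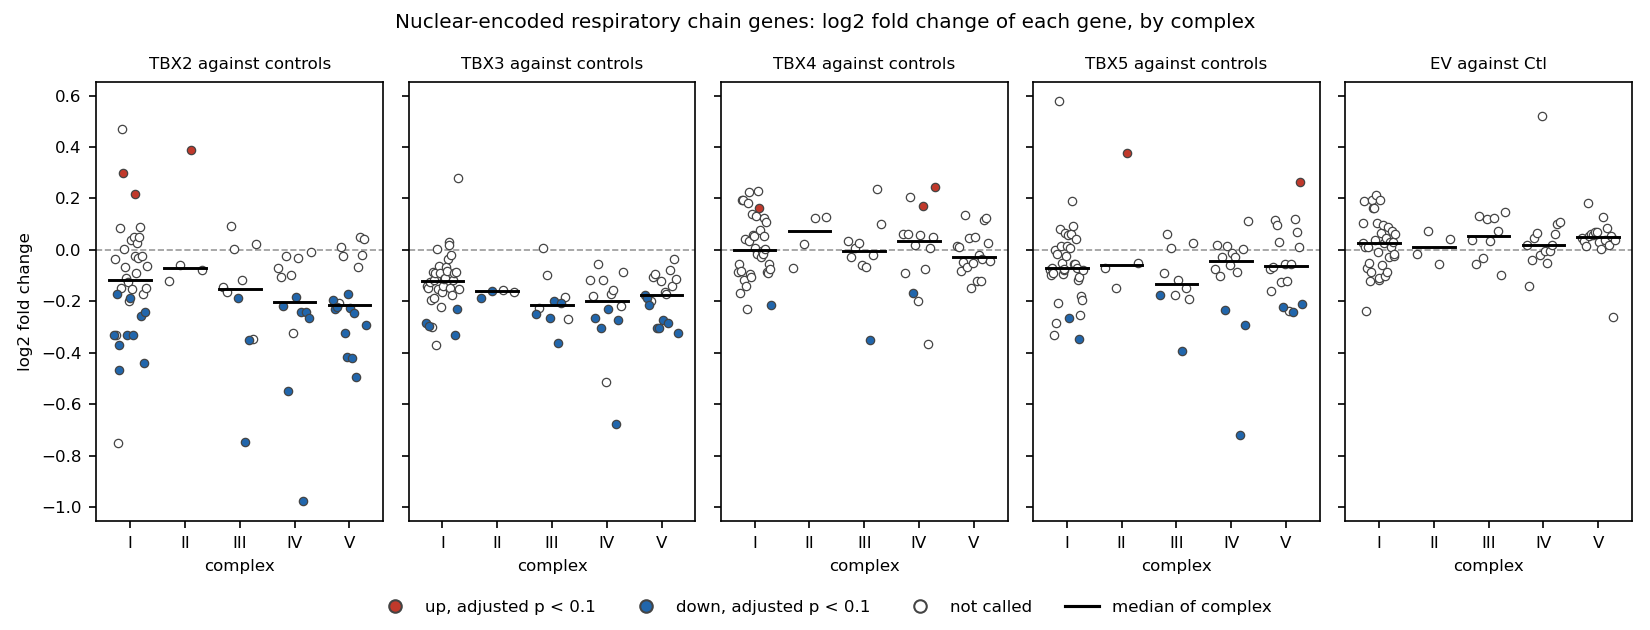
Log2 fold change (vertical axis) of each of the 82 members in each comparison, by complex (horizontal axis), with called members filled and the median of each complex as a bar. The medians of complexes III, IV and V lie at -0.15 to -0.22 with TBX2 and TBX3, and those with TBX4 lie near 0 with TMM scaling but at 0.23 to 0.29 with library totals.

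For 6 of the members that fell with both TBX2 and TBX3, the stretch of DNA before their start is shown, because members that move together may share letters there. Others that fell in both, such as ATP5PO, are not printed. Promoter sequences came from RefSeq (GRCh38.p14), which held 300 bases around the start of 66 of the 82 members. Both strands were searched for an NRF1 motif (CGCANGCGC), an ETS motif as bound by GABPA (CCGGAAGT), a YY1 motif (AAGATGGCG), a CREB motif (TGACGTCA) and a T-box motif (AGGTGTGA). NRF1, GABPA and YY1 are known regulators of respiratory chain genes. The last 120 bases before the start follow, 5′ to 3′ on the strand of the gene, with motif matches that lie wholly within them in capitals. A second ETS match of COX5B, which begins at -5 and runs past the start, is not marked. They are from chr19:29213152-29213271 (minus strand) for UQCRFS1, chr19:35648203-35648322 (plus strand) for COX6B1, and chr4:46909246-46909365 (minus strand) for COX7B2. The others are from chr12:53676084-53676203 (minus strand) for ATP5MC2, chr14:103921530-103921649 (minus strand) for ATP5MJ and chr2:97645942-97646061 (plus strand) for COX5B. They were chosen after the values were seen.
UQCRFS1: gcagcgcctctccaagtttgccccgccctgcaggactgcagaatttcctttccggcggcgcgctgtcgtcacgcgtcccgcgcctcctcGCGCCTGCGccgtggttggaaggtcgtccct
COX6B1: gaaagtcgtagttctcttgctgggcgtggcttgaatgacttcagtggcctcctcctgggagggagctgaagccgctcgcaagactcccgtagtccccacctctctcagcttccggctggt
COX7B2: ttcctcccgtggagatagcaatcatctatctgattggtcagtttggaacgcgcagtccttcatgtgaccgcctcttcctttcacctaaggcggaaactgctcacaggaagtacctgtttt
ATP5MC2: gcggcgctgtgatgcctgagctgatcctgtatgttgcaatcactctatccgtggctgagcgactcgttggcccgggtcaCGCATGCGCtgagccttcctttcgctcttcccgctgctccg
ATP5MJ: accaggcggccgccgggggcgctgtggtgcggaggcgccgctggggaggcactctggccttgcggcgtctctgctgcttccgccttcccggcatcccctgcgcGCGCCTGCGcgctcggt
COX5B: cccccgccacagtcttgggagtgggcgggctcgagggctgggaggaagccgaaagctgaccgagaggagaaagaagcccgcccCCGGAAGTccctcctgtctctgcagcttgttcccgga
UQCRFS1, ATP5MC2 and ATP5MJ carry the NRF1 motif in capitals, COX5B the ETS motif, and COX6B1 and COX7B2 have no match in this stretch.

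Over the 300 bases, the NRF1 motif was in 22 of the 66 member promoters (33.3%) and in 7.47% of 35116 promoters. The 35116 were all RefSeq promoters of that length, whether or not their gene was tested here, while each member had a single promoter. The sets are thus unlike, and motif shares among the tested genes were not computed. The ETS motif was in 10 members (15.2%) and 4.14% of all promoters, and the YY1 motif in 8 members (12.1%) and 1.75%. CREB letters were in 5 members (7.58%) and 1.85% of all promoters. The T-box letters were in 0 of the 66 member promoters and 0.980% of all promoters, which says only that these letters are not in this window. Of the 21 members with a promoter that fell in at least 2 comparisons, 9 (42.9%) held the NRF1 motif, and of the 34 that fell in none, 10 (29.4%) did. The ETS motif was in 3 (14.3%) and 7 (20.6%) of these, the YY1 motif in 2 (9.52%) and 5 (14.7%), and the CREB letters in 2 (9.52%) and 2 (5.88%), so the motifs do not all lie on 1 side. These shares were not tested against each other. By complex, the NRF1 motif was in 9 of 31 promoters of complex I, 2 of 3 of complex II, 4 of 7 of complex III, 1 of 11 of complex IV and 6 of 14 of complex V. A match is a description of letters and not of binding.

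Complex I takes electrons from NADH and is the largest of the complexes. With TBX2, 10 of its 36 members fell (27.8%, against 15.6% of all tested genes) and 2 rose (5.56%, against 17.0%), around a median of -0.12. With TBX3, 4 fell (11.1%, against 6.40%) and 0 rose (against 8.47%), around a median of -0.12. An unadjusted edgeR p under 0.05 was found for 11 of the 36 and for 3713 of all 15576 tested genes, in either direction. Leaving out TBX2 replicate a or TBX2 replicate c left 5 members down, and leaving out TBX2 replicate c left 1 up. With TBX3, leaving out Ctl replicate a gave 1 up.

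Among the core subunits of complex I that carry iron-sulfur clusters, NDUFS8 was at 31.7, 37.1 and 42.2 CPM as the lowest, median and highest control and at 28.6, 32.2 and 20.5 CPM with TBX2. TBX2 replicate c was the lowest, and replicate b lay within the controls. NDUFS8 fell by 0.44 ± 0.10 (log2 and SE, adjusted p 0.0029), and was named after its values were seen. NDUFS7, another cluster-bearing core subunit, was at 12.8, 14.0 and 15.3 CPM in the controls and at 14.4, 9.50 and 10.3 CPM with TBX3. TBX5 libraries held 11.1, 10.1 and 12.3 CPM of it, each below the lowest control. NDUFS7 fell by 0.33 ± 0.11 with TBX3 (adjusted p 0.0647) and by 0.35 ± 0.11 with TBX5 (adjusted p 0.0529). The TBX3 call was lost without TBX3 replicate b (adjusted p 0.254), TBX3 replicate c (0.333), Ctl replicate c (0.103) or EV replicate c (0.105), and the change was -0.51 without TBX3 replicate a. The TBX5 call was lost without TBX5 replicate a (adjusted p 0.154) or TBX5 replicate b (0.192). Of the exon length of NDUFS7, 36.1% overlaps another gene, where reads were not counted.

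NDUFV1, the core subunit that binds NADH, was at 48.2, 53.2 and 58.5 CPM in the controls and at 41.8, 53.4 and 38.3 CPM with TBX2. TBX2 replicates a and c were below the controls, and replicate b was among them. It was called down with TBX2 at -0.24 ± 0.09 (adjusted p 0.0415), a call that was lost without TBX2 replicate a (-0.19, adjusted p 0.204) or TBX2 replicate c (-0.15, 0.255) and was -0.40 without TBX2 replicate b. With TBX3 it was at 44.9, 43.1 and 47.2 CPM, below all controls. The TBX3 change was -0.23 ± 0.07 (adjusted p 0.0285), and it was not called without TBX3 replicate b (-0.20, adjusted p 0.122). NDUFV1 was also named after its values were seen.

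Accessory subunits of complex I supplied the members that rose, and in each TBX comparison also members that fell. With TBX2 the latter were NDUFA1, NDUFA2, NDUFA3, NDUFA12, NDUFB4, NDUFB7, NDUFB11 and NDUFS5. With TBX3 they were NDUFA1 and NDUFA12, with TBX5 NDUFB7, and with TBX4 NDUFV3. NDUFA8 was at 13.4, 14.2 and 16.1 CPM in the controls and at 17.0, 18.01 and 18.7 CPM with TBX2. All 3 TBX2 libraries lay above the controls. NDUFA8 rose by 0.30 ± 0.09 (adjusted p 0.02), and the call was lost against EV alone (0.21, adjusted p 0.155). NDUFC1 was at 17.5, 19.3 and 19.9 CPM in the controls and at 20.9, 23.0 and 22.7 CPM with TBX2, again above all controls. It rose by 0.22 ± 0.08 (adjusted p 0.0479), but not without TBX2 replicate b (0.18, adjusted p 0.19) or TBX2 replicate c (0.21, 0.111), and 31.5% of its exon length overlaps other genes.

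With TBX4, NDUFB9 and NDUFV3 were the called members of complex I. NDUFB9 was at 61.7, 62.9 and 73.1 CPM in the controls and at 74.3, 72.1 and 71.8 CPM with TBX4. TBX4 replicate a lay above every control, and the other 2 above all but EV replicate c. NDUFB9 was called up at 0.16 ± 0.06 (adjusted p 0.0897), and leaving out any Ctl or TBX4 library, EV replicate a or EV replicate b ended the call, with adjusted p of 0.123 to 0.236. NDUFV3, an accessory subunit of the NADH-binding arm, was at 25.9, 27.3 and 29.4 CPM in the controls and at 23.6, 24.2 and 23.2 CPM with TBX4. Each TBX4 value was below each control. It fell by 0.22 ± 0.07 (adjusted p 0.0496), a call lost without TBX4 replicate a (adjusted p 0.152), b (0.114) or the library labelled 4c-TBX5 (-0.20, 0.162), and its value was 0.05 with library totals.

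Complex II, which takes electrons from succinate and is also an enzyme of the TCA cycle, had 4 members, which with TBX3 all had negative values, -0.19 to -0.16, of which 2 were called, against 6.40% of all tested genes down. That count was 0 without TBX3 replicate a, and 1 without TBX3 replicate b, Ctl replicate c or any EV library. With TBX2 and TBX5 SDHC was its called member, where 17.0% and 6.55% of all tested genes rose. SDHC, one of its membrane anchors, was at 10.2, 11.9 and 13.1 CPM in the controls and at 17.7, 11.2 and 18.2 CPM with TBX2. TBX5 libraries held 18.2, 13.3 and 13.03 CPM of it. In each group the high values came from some libraries only, TBX2 replicates a and c and TBX5 replicate a, while the other libraries were near the controls. SDHC rose by 0.39 ± 0.13 with TBX2 (adjusted p 0.0283) and by 0.38 ± 0.12 with TBX5 (adjusted p 0.054). Without TBX2 replicate a the TBX2 value was 0.27 (adjusted p 0.234), without c 0.29 (0.162), and without b 0.61. Without TBX5 replicate a the TBX5 value was 0.17 (adjusted p 0.537). Complex II then had 0 members up and 2 down with TBX5, where 811 of all 15576 tested genes fell.

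SDHA, the flavoprotein that oxidizes succinate, was at 62.6, 64.2 and 65.8 CPM in the controls and at 53.7, 57.0 and 58.2 CPM with TBX3, each below all controls. It fell by 0.19 ± 0.06 (adjusted p 0.0352), but not without TBX3 replicate a (-0.16, adjusted p 0.173). SDHA was named after its values were seen. SDHB, the iron-sulfur subunit, was at 68.2, 70.8 and 78.1 CPM in the controls and at 62.1, 62.5 and 67.5 CPM with TBX3, also below all controls. It was called down with TBX3 at -0.16 ± 0.06 (adjusted p 0.0986). That call was lost without TBX3 replicate a, TBX3 replicate b, Ctl replicate c or any EV library, with adjusted p of 0.12 to 0.289.

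Complex III, which reduces cytochrome c, held the member with the clearest change in all 4 TBX groups. UQCRFS1 (ENSG00000169021), the Rieske iron-sulfur protein, was at 90.5 CPM in the lowest control, 96.5 at their median and 105 in the highest. It was at 61.3, 55.5 and 55.8 CPM in the TBX2 libraries. TBX3 libraries held 79.3, 70.2 and 75.9 CPM. All of these lay below every control. With TBX4 it was at 80.5, 76.3 and 71.2 CPM, and with TBX5 at 79.8, 73.0 and 67.4 CPM, again below every control. UQCRFS1 fell by 0.75 ± 0.07 with TBX2 (adjusted p 1.65e-08) and by 0.36 ± 0.06 with TBX3 (adjusted p 0.000339). It fell by 0.35 ± 0.06 with TBX4 (adjusted p 0.000296) and by 0.39 ± 0.07 with TBX5 (adjusted p 0.000583). Leaving out any single library kept each of these calls, also without the library labelled 4c-TBX5. With library totals, the calls with TBX3 (-0.45, adjusted p 0.999), TBX4 (-0.10, 0.642) and TBX5 (-0.69, 0.207) were lost. UQCRFS1 is called in the same direction in all 4 comparisons, as is COX6B1 of complex IV, and no other member is.

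With TBX2, 3 of the 10 members of complex III fell (UQCRFS1, UQCRH and UQCRC1), where 15.6% of all tested genes did, and 6 fell without TBX2 replicate b. With TBX3, 5 fell, which were these and CYC1 and UQCRC2, against 6.40% of all tested genes, and 3 fell without TBX3 replicate a or TBX3 replicate b. UQCRH, the hinge protein that helps cytochrome c dock, was at 83.6, 88.8 and 99.6 CPM in the controls and at 67.9, 78.7 and 63.8 CPM with TBX2, below all controls. It fell by 0.35 ± 0.07 (adjusted p 0.000769). With TBX3 it was at 78.8, 68.6 and 84.6 CPM, where replicate c lay within the controls. The TBX3 change was -0.21 ± 0.07 (adjusted p 0.048), and it was not called without TBX3 replicate a (-0.22, adjusted p 0.115) or TBX3 replicate b (-0.13, 0.3). UQCRHL, a near-copy of UQCRH elsewhere in the genome, was at 4.80 to 7.37 CPM in the controls, and reads that fit both copies were not counted.

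CYC1, cytochrome c1, was at 103, 109.7 and 124 CPM in the controls and at 90.6, 88.9 and 99.8 CPM with TBX3, below all controls. It fell by 0.25 ± 0.06 (adjusted p 0.0119), and was named after its values were seen. With TBX5 it was at 98.1, 97.8 and 99.6 CPM, a tight group also below all controls. The TBX5 change was -0.18 ± 0.06 (adjusted p 0.0909), and it was not called without any of the TBX5 libraries, Ctl replicate b, Ctl replicate c, EV replicate b or EV replicate c, with adjusted p of 0.116 to 0.213.

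Complex IV, cytochrome c oxidase, had 7 of 14 members down with TBX2 and 5 with TBX3 (COX7B2, COX6B1, COX7C, COX5B and COX7A2), where 15.6% and 6.40% of all tested genes fell. EdgeR and DESeq2 each called 0 up in both comparisons, and every member with an unadjusted p under 0.05, 7 with TBX2 and 10 with TBX3, was lower. Such a p was found for 5732 of all 15576 tested genes with TBX2 and 3713 with TBX3, in either direction. The median of complex IV was -0.20 in both comparisons. Without TBX2 replicate c, 4 fell with TBX2. With TBX3, 3 fell without TBX3 replicate a or TBX3 replicate b, and 9 without TBX3 replicate c.

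COX6B1 (ENSG00000126267), a subunit on the outer face of the complex, was at 117, 122 and 135 CPM in the controls. It was at 85.7, 91.1 and 75.5 CPM with TBX2. TBX3 libraries held 101, 89.2 and 108 CPM. The TBX2 and TBX3 values were all below the controls. With TBX4 it was at 119.6, 110.1 and 100.5 CPM, and with TBX5 at 115, 95.4 and 103 CPM. Here TBX4 replicate a lay within the controls, and all TBX5 values lay below them. COX6B1 fell by 0.55 ± 0.07 with TBX2 (adjusted p 2.18e-06) and by 0.30 ± 0.06 with TBX3 (adjusted p 0.00288). With TBX5 it fell by 0.23 ± 0.07 (adjusted p 0.0295), but not without TBX5 replicate b (-0.17, adjusted p 0.196) or TBX5 replicate c (-0.22, 0.13). With TBX4 it was called down at -0.17 ± 0.06 (adjusted p 0.0796), and had a positive value of 0.09 with library totals. The TBX4 call was lost without the library labelled 4c-TBX5 (-0.10, adjusted p 0.422), TBX4 replicate b (0.215), Ctl replicate b (0.103), EV replicate b (0.118) or EV replicate c (0.154).

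COX7B2, a paralogue of COX7B at a low level, was at 4.11, 4.68 and 5.78 CPM in the controls and at 2.297, 2.41 and 2.92 CPM with TBX2. With TBX3 it was at 3.54, 2.56 and 3.09 CPM. All 3 values of both groups were below the controls. It fell by 0.98 ± 0.19 with TBX2 (adjusted p 0.000487), and by 0.68 ± 0.17 with TBX3 (adjusted p 0.013). With TBX5 the libraries held 4.11, 1.59 and 2.61 CPM, where replicate a was just below the lowest control. The TBX5 change was -0.72 ± 0.22 (adjusted p 0.0485). It was -1.22 without TBX5 replicate a, and not called without TBX5 replicate b (-0.49, adjusted p 0.231) or TBX5 replicate c (-0.64, 0.175).

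COX5B, a subunit on the matrix side, was at 46.8, 49.0 and 51.4 CPM in the controls and at 44.7, 35.8 and 41.5 CPM with TBX3, below all controls. It fell by 0.27 ± 0.07 with TBX3 (adjusted p 0.0123), and missed the threshold without TBX3 replicate b (-0.19, adjusted p 0.105). With TBX2 it was at 42.7, 45.6 and 37.3 CPM, also below all controls. The TBX2 change was -0.22 ± 0.07 (adjusted p 0.0218), and -0.15 without TBX2 replicate c (adjusted p 0.159).

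COX7A2, a small membrane subunit, was at 61.1, 64.4 and 69.4 CPM in the controls and at 50.7, 54.0 and 59.7 CPM with TBX3, below all controls. It fell by 0.23 ± 0.06 (adjusted p 0.0203), but not without TBX3 replicate a (-0.18, adjusted p 0.147). With TBX2 it was at 59.1, 58.9 and 52.4 CPM, also below all controls. The TBX2 change was -0.18 ± 0.06 (adjusted p 0.0388), and -0.13 without TBX2 replicate c (adjusted p 0.209). Its paralogue COX7A1, a form of muscle, was at 0.793 to 2.63 CPM in the controls and was not called in any comparison.

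COX8A was called down with TBX5 at -0.29 ± 0.08 (adjusted p 0.0185), from 50.4 to 59.4 CPM in the controls to 48.2, 41.9 and 39.3 CPM, and was not called without TBX5 replicate c (-0.23, adjusted p 0.146). With TBX2 it was at 37.78, 56.2 and 37.3 CPM, where replicate b lay among the controls, and the change of -0.27 ± 0.10 (adjusted p 0.0499) was -0.50 without that library. It was not called without TBX2 replicate a (-0.16, adjusted p 0.332) or TBX2 replicate c (-0.17, 0.27), and 35.4% of its exon length overlaps another gene.

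With TBX4, the members of complex IV that rose were NDUFA4 and COX7A2L. NDUFA4, once assigned to complex I and now to complex IV, was at 44.8, 47.2 and 56.7 CPM in the controls and at 65.4, 55.0 and 54.2 CPM with TBX4. Only TBX4 replicate a lay above the highest control, EV replicate c. NDUFA4 rose by 0.25 ± 0.07 (adjusted p 0.0333), and not without TBX4 replicate a (0.16, adjusted p 0.28). COX7A2L, which joins complexes III and IV in supercomplexes, was at 39.1, 43.8 and 45.1 CPM in the controls and at 51.4, 47.6 and 47.8 CPM with TBX4, above all controls. It was called up at 0.17 ± 0.06 (adjusted p 0.0737), and lost the call without any TBX4 library, EV replicate a or EV replicate b, with adjusted p of 0.113 to 0.284. Without the library labelled 4c-TBX5 its value was 0.19 (adjusted p 0.113).

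**Figure D2:**
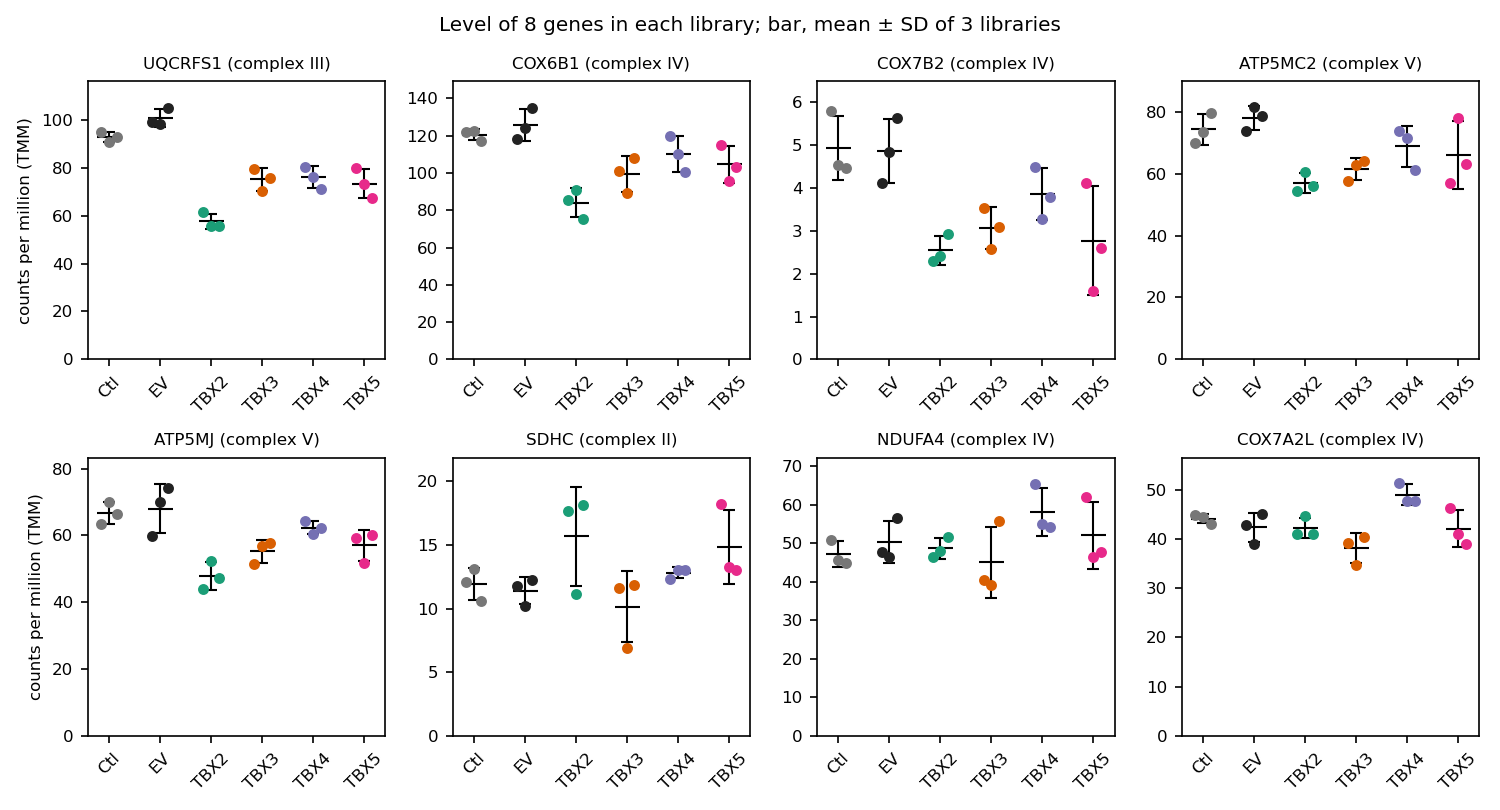
Level in CPM (vertical axis) of 8 members in each of the 18 libraries, by group (horizontal axis), with points for libraries and bars for the mean and SD of 3 libraries. UQCRFS1 lies at 90.5 to 105 CPM in the controls and at 55.5 to 80.5 CPM in the TBX libraries, and SDHC shows libraries of a group apart from each other.

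Complex V, the ATP synthase, had the largest share of members down with TBX2, 11 of 18, and 8 of 18 with TBX3, around medians of -0.21 and -0.17, where 15.6% and 6.40% of all tested genes fell. EdgeR and DESeq2 each called 0 of its members up with TBX2 or TBX3. In both comparisons 11 had an unadjusted edgeR p under 0.05, all lower. Among all 15576 tested genes, 5732 with TBX2 and 3713 with TBX3 had such a p, in either direction. Without TBX2 replicate a, 7 fell with TBX2, and without TBX3 replicate a or TBX3 replicate b, 5 or 4 fell with TBX3. The median with TBX3 was -0.24 without TBX3 replicate c. ATP5F1B, the catalytic subunit, was at 392.1, 405 and 461 CPM in the controls and at 350.4, 375 and 337 CPM with TBX2, below all controls. It fell by 0.23 ± 0.07 (adjusted p 0.0127). With TBX3 it was at 360.0, 332 and 401 CPM, where replicate c lay within the controls. The TBX3 change of -0.19 ± 0.07 (adjusted p 0.0786) lost its call without TBX3 replicate a, TBX3 replicate b (-0.12), Ctl replicate a, EV replicate b or EV replicate c, with adjusted p of 0.1 to 0.376.

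ATP5MC1, ATP5MC2 and ATP5MC3 encode the same mature subunit c, which forms the rotating ring, with different import sequences. ATP5MC2 was at 69.8, 76.1 and 81.4 CPM in the controls, at 54.3, 60.5 and 55.8 CPM with TBX2, and at 57.5, 62.8 and 64.0 CPM with TBX3. Both TBX groups lay below all controls. It fell by 0.42 ± 0.07 with TBX2 (adjusted p 6.21e-05) and by 0.30 ± 0.06 with TBX3 (adjusted p 0.00249). With TBX5 it was at 56.9, 78.0 and 63.1 CPM, where replicate b lay within the controls. The TBX5 change of -0.22 ± 0.08 (adjusted p 0.0948) was -0.35 without TBX5 replicate b and -0.11 without TBX5 replicate a (adjusted p 0.482). It also lost its call without TBX5 replicate c, Ctl replicate b, Ctl replicate c or any EV library, with adjusted p of 0.105 to 0.269. ATP5MC1 fell by 0.32 ± 0.09 with TBX2 (adjusted p 0.00994) and by 0.31 ± 0.09 with TBX3 (adjusted p 0.0257). Without TBX3 replicate b its TBX3 value was -0.22 (adjusted p 0.164). ATP5MC3 was called down with TBX2 at -0.17 ± 0.07 (adjusted p 0.0628), but not without TBX2 replicate a (adjusted p 0.116), TBX2 replicate c (0.266) or EV replicate c (0.117).

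As a share of the counts of the 3 subunit c genes, ATP5MC3 made up 28.5% to 30.6% in the controls. It made up 33.6%, 32.8% and 33.0% with TBX2 and 33.7%, 32.5% and 32.0% with TBX3, all above the controls. With TBX4 the shares were 30.9%, 29.7% and 30.2%, and with TBX5 35.4%, 28.3% and 31.3%, which overlap the controls. Such a share does not depend on how libraries are scaled.

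ATP5MJ, a small membrane subunit of the synthase named after its values were seen, was at 59.9, 68.2 and 74.3 CPM in the controls and at 44.1, 52.2 and 47.2 CPM with TBX2. With TBX3 it was at 51.4, 56.7 and 57.9 CPM, and with TBX5 at 59.1, 51.8 and 60.3 CPM. TBX2 and TBX3 lay below all controls, and TBX5 replicate c just above the lowest. ATP5MJ fell by 0.49 ± 0.08 with TBX2 (adjusted p 3.79e-05) and by 0.28 ± 0.07 with TBX3 (adjusted p 0.00906). With TBX5 it fell by 0.24 ± 0.07 (adjusted p 0.0479), but not without TBX5 replicate b (-0.18, adjusted p 0.237). The member of complex V that rose was ATP5PF, a part of the outer stalk, at 20.04, 22.6 and 25.5 CPM in the controls and 29.0, 26.8 and 24.9 CPM with TBX5. TBX5 replicate c lay within the controls. Between EV and Ctl ATP5PF had a value of -0.26 ± 0.08 (unadjusted p 0.00445, adjusted p 0.279), a difference of similar size, with each EV library below each Ctl library. The TBX5 change of 0.27 ± 0.09 (adjusted p 0.0819) was -0.03 with library totals, and was not called without TBX5 replicate a (0.20, adjusted p 0.318), TBX5 replicate b (0.152) or EV replicate a, b or c (0.13, 0.135 and 0.144). ATP5PF also overlaps GABPA and JAM2 over 37.3% of its exon length.

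**Figure D3:**
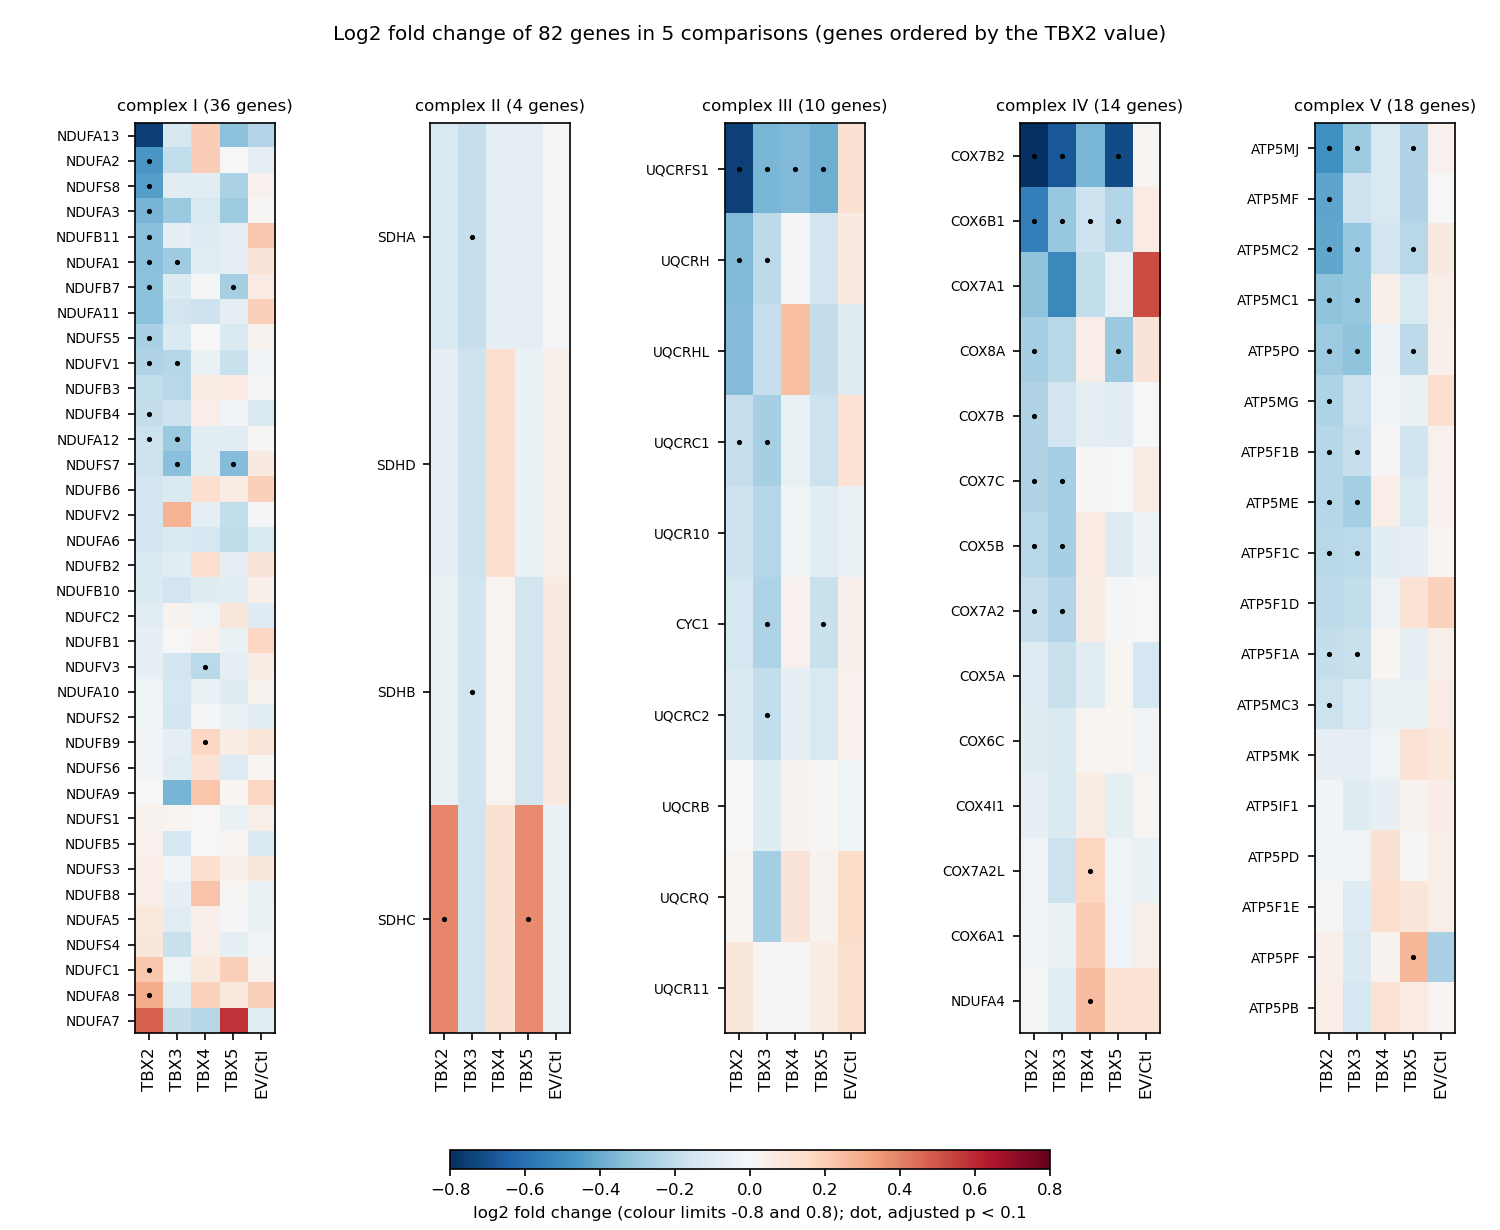
Log2 fold change of the 82 members in the 5 comparisons (columns), by complex and ordered by the TBX2 value, as colour from blue (lower) to red (higher), limited at -0.8 and 0.8, with dots at members with an adjusted p under 0.1. Blue prevails in the TBX2 and TBX3 columns of complexes III, IV and V, while the TBX4 column is pale with TMM scaling and its median would be 0.26 with library totals.

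Levels summed over the members of a complex weigh the most counted genes most. The summed level of all 82 members was 4005 CPM in the lowest control, 4078 at the median and 4402 in the highest, EV replicate c. It was 3545, 3893 and 3560.5 CPM with TBX2, and 3559, 3480.2 and 3877 CPM with TBX3. All of these lay below the controls. With TBX4 it was 4338, 4133 and 3923 CPM, and with TBX5 4045, 3803 and 3803 CPM, and both groups overlap the controls. Against the mean of the controls, complex III was 14.2% lower with TBX2 and 14.6% lower with TBX3, complex IV 13.1% and 13.2% lower, and complex V 12.6% and 12.0% lower. Complex I changed by -6.40% and -8.09%, and complex II by -3.36% and -11.6%. With library totals the TBX3 change of complex I was -12.8%, and those of complexes II to V ran from -19.1% (complex III) to -15.7% (complex II). Changes with TBX4 ran from -2.88% (complex III) to 1.72% (complex IV), and from 15.8% to 21.1% with library totals. With TBX5 they ran from -9.25% (complex III) to -4.35% (complex I), and from -27.5% to -21.9% with library totals.

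**Figure D4:**
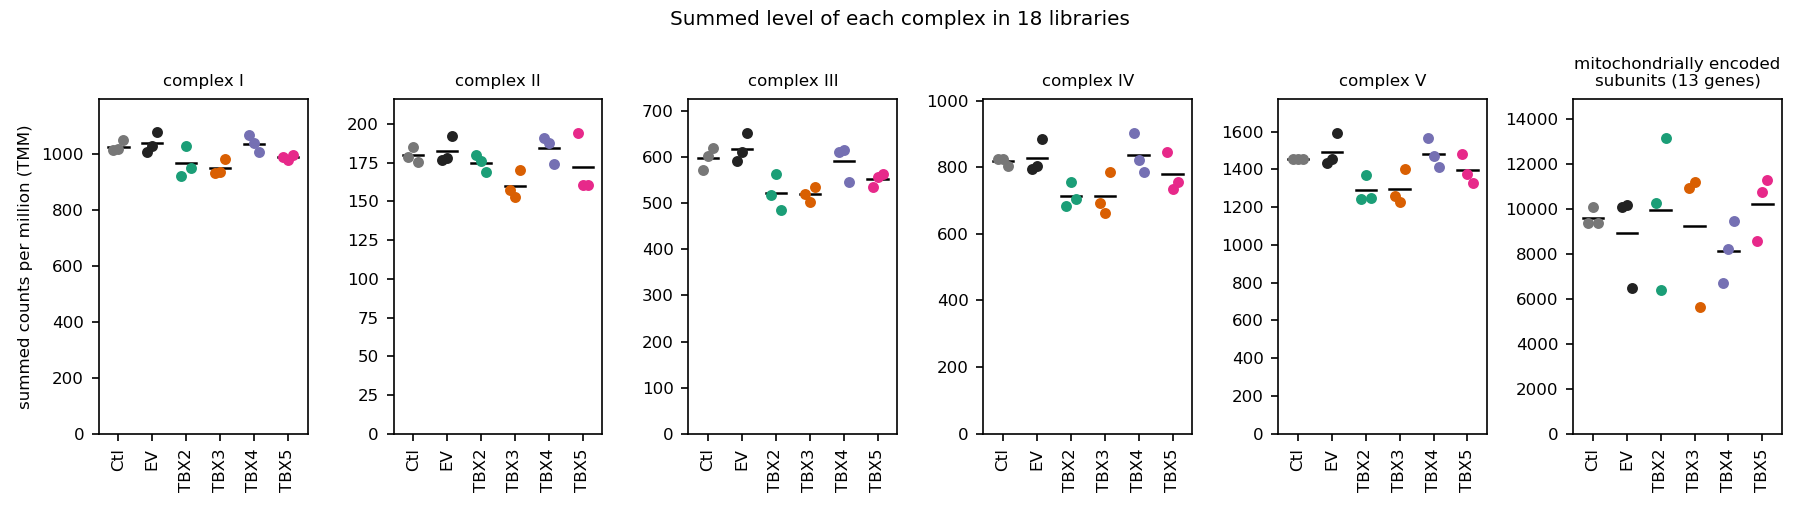
Summed level of the members of each complex in CPM (vertical axis) in each of the 18 libraries, by group (horizontal axis), and of 13 subunits encoded by mitochondrial DNA, with points for libraries and lines for the mean of 3. TBX2 and TBX3 libraries lie below all controls in complexes III, IV and V, and EV replicate c is the highest control in all 5 complexes.

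The balance between complexes can be read within a library as a ratio of these sums, which no scaling changes. The sum of complex I over that of complex V was 0.677 to 0.720 in the controls. It was 0.741, 0.748 and 0.760 with TBX2, above all controls. The same held with TBX2 for complex I over complex III, 1.775 to 1.960 against 1.655 to 1.769 in the controls, and over complex IV, 1.347 to 1.360 against 1.220 to 1.302. With TBX3 the sum of complex I over that of complex III was 1.789 to 1.859, above all controls. Over complex V it was 0.740, 0.760 and 0.698 with TBX3, of which replicate c lay within the controls. With TBX4 this ratio was 0.680, 0.706 and 0.712, and with TBX5 0.669, 0.710 and 0.749, values on both sides of or within the control range. The ratio of complex IV to complex V was 0.553 to 0.566 in the controls, 0.550 to 0.563 with TBX2 and 0.540 to 0.559 with TBX3, which overlap.

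Levels between genes are compared per length of the canonical transcript, in CPM per kb averaged over the 18 libraries, for all members but NDUFB6, which has no canonical length. In complex I they ran from 1.39 (NDUFA9) to 94.96 (NDUFB9), and in complex II from 9.79 (SDHC) to 67.8 (SDHB). In complex III they ran from 5.88 (UQCR11) to 154 (UQCRH), in complex IV from 4.50 (COX7A1) to 220.2 (COX6B1), and in complex V from 17.1 (ATP5F1D) to 222 (ATP5F1B). Of the paralogue pairs, COX4I1 was at 122, 123 and 133 CPM in the controls while its paralogue COX4I2 had 0 counts in every library. COX6A1 was at 19.3 to 24.9 CPM in the controls, and its paralogue COX6A2, a muscle form, had at most 2 counts in a library, as had COX8C, a paralogue of COX8A. COX6B2, a testis form, had at most 4 counts, and NDUFA4L2 3 to 18. A low level need not be a low transcript level, because 49 members have at least 1 numbered pseudogene and 13 overlap other genes over more than 20% of their exon length, where reads were not counted.

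Members were also shorter than most genes, with a median exon length of 2460 bases against 4848 for all tested genes. Among genes with up to 2716 exon bases, the median change with TBX2 was -0.17 for 46 members and -0.03 for 3797 genes in all. With TBX3 these medians were -0.18 and -0.04. For longer genes up to 4848 bases, the TBX2 medians were -0.17 for 19 members and 0.0031 for 3796 genes in all. For those up to 7695 bases they were -0.05 for 6 members and 0.02 for all, and for still longer genes -0.03 for 11 members and -0.0052 for all, classes that hold few members. With TBX3 the members' medians in these 3 longer classes were -0.14, -0.16 and -0.15.

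Differences between the 4 TBX groups were tested in 1 fit of all 18 libraries. At an adjusted p under 0.1, 21 of 82 members differed, against 22.7% of all tested genes, a share near that of all genes. Of the 21, the highest mean was in TBX4 for 19 and in TBX2 for 2, and the lowest was in TBX3 for 12 and in TBX2 for 9. Of all 3536 genes called, the highest mean was in TBX4 for 14.8% and in TBX2 for 35.3%, and the lowest was in TBX3 for 27.3% and in TBX2 for 33.0%. In the pair tests of this fit, 20 members were lower with TBX2 than with TBX4, and 15 lower with TBX3 than with TBX4. Of all tested genes, 874 and 626 were lower in these pairs. Between TBX4 and TBX5, 0 members were called, where 17 of all tested genes were higher and 67 lower with TBX4. A highest mean in TBX4 thus does not set it apart from TBX5. The count of members that differed was 13 without TBX2 replicate a, TBX3 replicate a or TBX3 replicate b. It was 10 without TBX4 replicate a, 32 without TBX5 replicate a, and 25 without the library labelled 4c-TBX5. With library totals edgeR gave 0, and DESeq2 gave 16 with its own scaling.

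UQCRFS1 had the smallest adjusted p of these (0.000534). It was lower with TBX2 than with TBX3 by -0.38 ± 0.07 (adjusted p 0.00073), than with TBX4 by -0.40 ± 0.07 (adjusted p 0.000484), and than with TBX5 by -0.36 ± 0.08 (adjusted p 0.00244). Between TBX3, TBX4 and TBX5 its differences were -0.02 to 0.04, with adjusted p of 0.903 to 0.939. COX6B1 (adjusted p 0.00841) was lower with TBX2 than with TBX3 (-0.24 ± 0.08, adjusted p 0.0628), TBX4 (-0.38 ± 0.08, 0.00343) and TBX5 (-0.32 ± 0.09, 0.0194). COX5B (adjusted p 0.00893) was lower with TBX3 than with TBX4 by -0.33 ± 0.08 (adjusted p 0.0076). Of the members that rose, NDUFA8 was higher with TBX2 than with TBX3 by 0.39 ± 0.09 (adjusted p 0.00724), while its test over the 4 groups gave an adjusted p of 0.0237 by edgeR and 0.117 by DESeq2.

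Subunits encoded by mitochondrial DNA, which complexes I, III, IV and V also need, had widely spread levels. Their summed level over 13 genes was 6493 (EV replicate c) to 10154 CPM in the controls. It was 10267, 6382 and 13149.5 CPM with TBX2, and 10904, 11180.5 and 5640.3 CPM with TBX3. With TBX4 it was 6687, 8203 and 9433 CPM, and with TBX5 8562, 10751 and 11283 CPM. Single libraries stood apart on the low side, namely EV replicate c, TBX2 replicate b and TBX3 replicate c. EdgeR called 0 of the 13 up in any comparison, where 1 with TBX2 and 2 with TBX5 were higher at an unadjusted p under 0.05, and DESeq2 also gave 0 up. With TBX3 edgeR called 0 down, where 1 was lower at an unadjusted p under 0.05 and DESeq2 gave 1 down.

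With TBX2 the gene that fell was MT-CO3 (-0.25 ± 0.09, adjusted p 0.0438), 1 of 13 where 15.6% of all tested genes fell. It was not called without TBX2 replicate a (adjusted p 0.101) or TBX2 replicate b (-0.14, 0.276), 2 genes fell without TBX2 replicate c, and 8 of the 13 rose without TBX2 replicate b. With TBX3, 8 rose without TBX3 replicate c, and 1 fell without TBX3 replicate b or EV replicate c. With TBX4 the genes that fell were MT-ND6 (-0.65 ± 0.17, adjusted p 0.0133) and MT-ATP8, where 6.07% of all tested genes fell. These calls use TMM scaling. As a share of library totals, all mitochondrial genes together were higher with TBX4 (22.1% to 23.1%) than in the controls (14.3% to 19.6%). That count of 2 became 11 without EV replicate c, 7 without the library labelled 4c-TBX5, 0 without TBX4 replicate b, and 1 without TBX4 replicate a, EV replicate a, EV replicate b, Ctl replicate b or Ctl replicate c. MT-ND6 was not called by DESeq2 (adjusted p 0.19) or without TBX4 replicate b (-0.57, adjusted p 0.114), and its value was 0.15 in a fit that held each library's share of that most counted gene. With TBX5, 7 rose without TBX5 replicate a and 1 without EV replicate a. Of all 15576 tested genes, 2298 rose without TBX2 replicate b, 946 without TBX3 replicate c and 989 without TBX5 replicate a, and with TBX4 1032 fell without EV replicate c and 593 without the library labelled 4c-TBX5. These genes were named after their values were seen.

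Other genes of energy metabolism were read from lists, and those named here were chosen after their values were seen. Assembly factors help to build the complexes, and 50 of them were tested. With TBX2, 6 rose (NDUFAF1, NDUFAF6, BCS1L, TTC19, COX10 and COX19) and 5 fell (UQCC1, UQCC2, COX16, COA1 and COA4), smaller shares than the 17.0% and 15.6% of all tested genes. BCS1L, which inserts the Rieske protein into complex III, averaged 16.8 CPM in the controls and 22.6 CPM with TBX2. It rose by 0.43 ± 0.09 (adjusted p 0.000607), while UQCRFS1, which encodes that protein, fell. UQCC2, another complex III factor, averaged 18.9 CPM in the controls, 14.4 CPM with TBX2 and 14.6 CPM with TBX3. It fell by 0.37 ± 0.10 with TBX2 (adjusted p 0.00691). Its TBX3 change of -0.34 ± 0.10 (adjusted p 0.0304) was -0.22 without TBX3 replicate b (adjusted p 0.202). The TBX2 counts became 1 up without TBX2 replicate c, and 3 down without TBX2 replicate c, Ctl replicate c or EV replicate b and 2 down without TBX2 replicate a.

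With TBX3, 5 assembly factors fell (NDUFAF8, ECSIT, SDHAF3, UQCC2 and COA1), with TBX4, 3 rose (NDUFAF4, COX17 and COA6), and with TBX5, 1 fell (COA7). All tested genes had 6.40% down with TBX3, 6.97% up with TBX4 and 6.12% down with TBX5, so the TBX4 and TBX5 counts were near or below these shares. EdgeR and DESeq2 each called 0 up with TBX3 and with TBX5, where 1 was higher at an unadjusted p under 0.05 in both, and 0 down with TBX4, where 3 were lower. Between EV and Ctl both tools called 0, and 2 were higher at an unadjusted p under 0.05. The TBX3 count down was 0 without TBX3 replicate b, 1 without TBX3 replicate a, which also gave 1 up, and 2 without EV replicate c. The TBX4 count up was 0 without TBX4 replicate a or EV replicate b, and 1 without the library labelled 4c-TBX5, Ctl replicate b or EV replicate a, and leaving out Ctl replicate b or EV replicate c gave 1 down. The TBX5 count was 0 without any TBX5 library, EV replicate a or EV replicate c, and 2 without Ctl replicate b.

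The TCA cycle feeds NADH and succinate to the chain. Of 17 tested genes of the cycle and of pyruvate dehydrogenase, 5 fell with TBX2 (OGDH, MDH2, PDHA1, PDHB and DLAT) and 6 with TBX3. With TBX4, 2 fell (OGDH and PDHB), and with TBX5, 5 (CS, OGDH, PDHA1, PDHB and DLAT). Of all tested genes, 15.6%, 6.40%, 6.07% and 6.12% fell with TBX2, TBX3, TBX4 and TBX5. EdgeR and DESeq2 each called 0 up in every comparison and 0 down between EV and Ctl, and at an unadjusted p under 0.05 1 was higher with TBX5 and 0 in the others. OGDH, an enzyme of the cycle, averaged 89.6 CPM in the controls and 61.1, 77.4, 73.6 and 65.5 CPM with TBX2, TBX3, TBX4 and TBX5. It fell by 0.55 ± 0.07 with TBX2 (adjusted p 1.62e-06) and by 0.45 ± 0.07 with TBX5 (adjusted p 0.000183). With TBX4 it fell by 0.29 ± 0.06 (adjusted p 0.00222), a value that was -0.02 with library totals. The TBX3 change of -0.21 ± 0.07 (adjusted p 0.0404) was not called without TBX3 replicate b (-0.16, adjusted p 0.226) or TBX3 replicate c (0.147). The count down was 3 with TBX2 without TBX2 replicate a, 2 with TBX3 without TBX3 replicate b, 1 with TBX4 without TBX4 replicate b or the library labelled 4c-TBX5, and 3 with TBX5 without TBX5 replicate c. Without TBX2 replicate b, 1 rose with TBX2.

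Glycolysis, the other main route to ATP, had 14 of 17 tested genes down with TBX2 and 12 with TBX3, around medians of -0.32 and -0.24. With TBX5 7 fell, around a median of -0.18, and with TBX4 1 did (-0.04). The shares of all tested genes down were 15.6%, 6.40%, 6.12% and 6.07% with TBX2, TBX3, TBX5 and TBX4, so the TBX4 count is near that share. With library totals 3 fell with TBX2, and edgeR called 0 down with TBX3, TBX4 or TBX5. EdgeR and DESeq2 each called 0 up in every comparison and 0 down between EV and Ctl, and at an unadjusted p under 0.05 1 was higher with TBX5 and 2 between EV and Ctl. With TBX5, 4 fell without EV replicate b or TBX5 replicate a and 3 without TBX5 replicate c. Between EV and Ctl, 1 rose without Ctl replicate c, as did 131 of all 15576 tested genes. GPI, which converts glucose 6-phosphate, averaged 211 CPM in the controls and 143 CPM with TBX2, and fell by 0.57 ± 0.06 (adjusted p 2.91e-07). It was also the gene that fell with TBX4 (-0.16 ± 0.05, adjusted p 0.0674), where its value was 0.10 with library totals and the call was lost without any TBX4 library, EV replicate a or EV replicate b (adjusted p 0.109 to 0.249). ENO1, which forms phosphoenolpyruvate, averaged 1214 CPM in the controls and 843 CPM with TBX2, and fell by 0.52 ± 0.08 (adjusted p 2.31e-05). SLC2A1, a glucose transporter, averaged 37.70 CPM in the controls and 25.01 CPM with TBX2, and fell by 0.59 ± 0.07 (adjusted p 1.63e-06). Whether the share down differs between glycolysis and the respiratory chain was not tested.

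Of 17 regulators of mitochondrial biogenesis, TFAM rose and YY1 fell with TBX2, GABPB1, PPRC1 and MYC rose with TBX3, PPARGC1A and YY1 fell with TBX4, and GABPA rose with TBX5. Between EV and Ctl, POLRMT rose. With TBX2 these shares lie below the 17.0% up and 15.6% down of all tested genes, of which 8.47% rose with TBX3 and 0.282% between EV and Ctl. With so few genes on the list, these counts are no result about the regulators as a whole, also with TBX4 and TBX5, where 6.07% of all tested genes fell and 6.55% rose. The POLRMT value was 0.38 ± 0.09 (adjusted p 0.0746), and DESeq2 called 0 there, where 3 were higher at an unadjusted edgeR p under 0.05. TFAM, which packages and helps transcribe mitochondrial DNA, averaged 57.0 CPM in the controls and 65.6 CPM with TBX2. It rose by 0.21 ± 0.07 (adjusted p 0.0235), but not without TBX2 replicate b (0.12, adjusted p 0.255). PPARGC1A, a coactivator of respiratory chain genes, averaged 8.49 CPM in the controls and 5.88 CPM with TBX4, and fell by 0.52 ± 0.13 (adjusted p 0.0123). PPRC1, a related coactivator, averaged 48.3 CPM in the controls and 58.4 CPM with TBX3, and rose by 0.27 ± 0.07 (adjusted p 0.0101). With TBX2 the count down was 0 without TBX2 replicate a and 2 without Ctl replicate b, and with TBX3 the count up was 1 without TBX3 replicate b or EV replicate c, and 1 fell without TBX3 replicate c. With TBX4, 1 fell without any TBX4 library, Ctl replicate b, EV replicate b or EV replicate c. With TBX5, 0 rose without TBX5 replicate b, TBX5 replicate c, Ctl replicate c, EV replicate b or EV replicate c, and 1 fell without TBX5 replicate a, Ctl replicate a or Ctl replicate b. The call of POLRMT was lost without Ctl replicate a, Ctl replicate b, EV replicate b or EV replicate c.

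**Figure D5:**
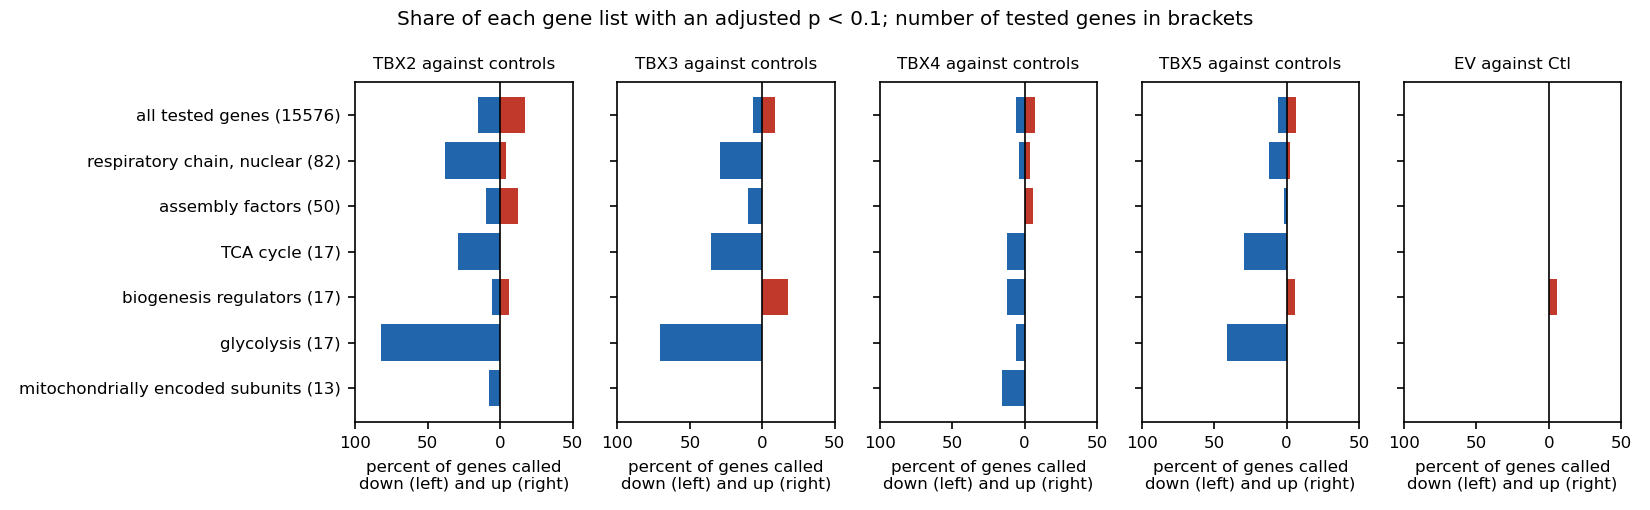
Percent of the genes of each list called down (left of 0) and up (right of 0) in each comparison (panels), with the number of tested genes beside each list. The bars of glycolysis reach furthest left with TBX2 and TBX3, and with library totals the number of glycolysis genes down is 3 with TBX2 and 0 with TBX3.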

How the data were processed

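The deposited values are counts of reads per gene that the authors made with STAR 2.3.0 and featureCounts on GRCh37, after bcl2fastq 1.8.4. The authors ran featureCounts at its defaults, under which strand is ignored and reads that fit several places or genes are not counted. Genes that exceeded 5 counts in 10 or more of 18 libraries were tested with edgeR 4.0.16 (glmQLFit with legacy=TRUE, TMM) in R 4.3.3, each TBX group in its own fit with the 6 controls, EV with Ctl, and the 4 TBX groups by an F test in 1 fit of all libraries. P-values were adjusted over all tested genes (Benjamini-Hochberg, 0.1), and SE was taken as the size of the log2 fold change divided by the root of F. DESeq2 1.42.0 was run beside it (for the 4 groups as a likelihood ratio test), and limma 3.58.1 was loaded with edgeR.

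The members and lists were chosen with earlier results of these data known. Members were named where they were called in the same direction in all 4 TBX comparisons, were among the 3 called with the largest change in each direction of a comparison or the 3 with the smallest p between the 4 groups, had the highest or lowest level per kb of a complex, or belong to a fixed set of paralogues. No member was called between EV and Ctl, so that none was named from it. Others were named after their values were seen, as the text says. The legacy option, the canonical transcript for levels per kb, the likelihood ratio test, the promoters printed, the count of members down in at least 2 comparisons and the alternatives named in the closing section as added were chosen after seeing the data. The labels do not say whether replicate letters pair libraries, and the main tests do not pair them. PECAM1 had no match in the count table, so 15 of 16 listed markers and TBX genes were read, and protein sequences were not printed.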

Additional observations from a re-analysis of the deposited data

Results flagged for a closer look

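Among the 6 controls, single libraries lay far from the other 5, by a gap past Dixon's 95% limit, in 10 of 43 sets of values tested. For a single set chance gives about 1 in 20, but the sets share libraries, genes and scaling. They are not independent, so the count cannot be set against that rate. EV replicate c stood apart in 8 of them. It was the highest control for NDUFB9 (73.1 CPM), COX4I1 (132.6 CPM), the summed levels of complex IV (884.3 CPM), complex V (1594 CPM) and all members (4402 CPM), and the TMM factor (1.34, against 0.883 to 1.01 in the others). It was the lowest for the summed level of mitochondrially encoded subunits (6493 CPM) and for the share of counts on the most counted gene (12.40%, 95% Wilson interval of counting error only 12.38% to 12.42%, against 30.3% to 40.2% in the others). Ctl replicate a was the lowest control for NDUFC1 (17.5 CPM), and EV replicate b the lowest for COX7A2L (39.1 CPM).

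The 4 TBX groups differed from each other in 21 members, against 22.7% of all tested genes. Of the named members, the adjusted p of that test was 0.000534 for UQCRFS1, 0.00841 for COX6B1, 0.00893 for COX5B, 0.0116 for COX7A2L and 0.0124 for ATP5MJ. It was 0.0237 for NDUFA8, 0.031 for COX7A2, 0.0351 for UQCRH, 0.0396 for ATP5MC1 and 0.0637 for SDHC. It was 0.0677 for NDUFA9, 0.0688 for CYC1, 0.0911 for NDUFB9 and 0.0951 for ATP5F1B.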

How the results depend on the processing

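With 1 fit of all libraries, 1 member was up with TBX4, and 1 up and 6 down with TBX5. With Ctl alone as controls, 1 was up with TBX2, 1 down with TBX4, and 0 up and 1 down with TBX5. With EV alone, 1 was up with TBX2, 1 up with TBX4 and 6 down with TBX5. DESeq2 gave 1 up with TBX4, and 0 up and 5 down with TBX5. At an adjusted p under 0.05, 1 was up with TBX4, 0 up and 6 down with TBX5, and 11 differed between the 4 TBX groups. With no filter (88 of 90 members among 40841 genes), 1 was up and 1 down with TBX4 and 1 up with TBX5.

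With library totals, 0 were up and 3 down with TBX2, 0 down with TBX3, and 16 up and 0 down with TBX4 (median 0.26). All tested genes that rose with TBX4 then numbered 2756 of 15576, a share near that of the members. Under that scaling 0 members were up and 0 down with TBX5 (median -0.37), and 0 differed between the 4 TBX groups by edgeR. The median between EV and Ctl was 0.24. With library totals the median of all tested genes was 0.0071 with TBX2 and -0.079 with TBX3, beside medians of -0.14 and -0.24 for the members. Library totals moved it to 0.25 with TBX4, -0.31 with TBX5 and 0.20 between EV and Ctl. With library totals that leave out the most counted gene, 42 were down with TBX3, 1 up with TBX4 and 1 up with TBX5. Among all 15576 tested genes, 1709 then fell with TBX3, 895 rose with TBX4 and 795 rose with TBX5. Their median was -0.031 with TBX4, -0.034 with TBX5 and 0.022 between EV and Ctl.

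With replicate letters as a block, 1 was up with TBX4 and 1 up with TBX5, and otherwise 3 were up and 30 down with TBX2, 30 down with TBX3, 2 down with TBX4, 10 down with TBX5, and 20 differed between the 4 TBX groups. Deviations from group means in libraries of the same letter but other groups had a mean correlation over genes of 0.00043 (-0.101 to 0.160 over 45 pairs). A mean near 0 shows no common pattern by letter. It cannot show that no libraries of a letter shared a batch. The block with length offsets gave 1 up with TBX5.

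Of the alternatives added after seeing the data, a fit that held each library's share of its most counted gene gave 0 up with TBX4 (median -0.060) and 4 up with TBX5, and leaving out members with a large exon overlap gave 1 up with TBX5. Directions turned with library totals for NDUFV3 (0.045), COX6B1 (0.087) and GPI (0.10) with TBX4 and ATP5PF with TBX5 (-0.026), and with that share in the fit for MT-ND6 with TBX4 (0.15) and TBX5 (-0.46). The cause of these changes was not tested.

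Leaving out each library in turn gave 1 to 3 up and 19 to 32 down with TBX2 (median -0.18 to -0.12), 0 to 1 up and 14 to 35 down with TBX3 (-0.23 to -0.14), 0 to 7 up and 1 to 3 down with TBX4 (-0.01 to 0.04), and 0 to 2 up and 4 to 12 down with TBX5 (-0.09 to -0.05). Between EV and Ctl it gave 0 up and 0 down (-0.0074 to 0.06), where edgeR gave 3 at an unadjusted p under 0.05 and DESeq2 gave 0. Between the 4 TBX groups, 10 to 32 differed. With 2 libraries left in a group, tests rest on the spread pooled over groups, and low counts limit what can be called. The members at the lowest mean levels, NDUFA13, NDUFA7 and COX7A1, had larger SEs than COX7B2 with TBX2. They were not called in any comparison.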
